A study of Mus musculus with 6 samples.

Results

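The leukocyte integrins described here are 10 genes of the 57180 in the deposited table, picked out by gene symbol, with no measured value in the rule: the α subunit genes Itgal, Itgam, Itgax, Itgad, Itga2, Itga4 and Itga6 and the β subunit genes Itgb1, Itgb2 and Itgb7. Their RNA was measured in NK cells (CD3- NK1.1+) sorted by flow cytometry into CD36+ NK and CD36- NK from the livers of mice with fibrosis, with 3 libraries in each group. CD36 is a scavenger receptor that takes up fatty acids, and the comparison asked how NK cells that carry it differ from those that do not. All cells came from wild-type male C57BL/6J mice, 6 to 8 weeks old, and all mice had received carbon tetrachloride (CCl4, a liver toxin) by intraperitoneal injection of 2.5 ml/kg of a 20% solution in olive oil, 2 times per week for 4 weeks, with tissue taken 48 h after the last dose. By design the 2 groups differed in the sort by CD36, and no library came from a liver without fibrosis. The series calls the libraries biological triplicates, but the sources used here do not say whether a library came from 1 mouse or from a pool.

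Integrins are adhesion receptors made of an α and a β chain, and a chain reaches the cell surface only with a partner. The β2 chain (Itgb2) pairs with the 4 leukocyte α chains encoded by Itgal, Itgam, Itgax and Itgad and binds the ICAM family and complement fragments. The β1 chain (Itgb1) pairs with many α chains, among them α2 for collagen, α4 for VCAM-1 and fibronectin and α6 for laminin, and the β7 chain (Itgb7) pairs with α4 for homing to the gut and with αE. NK cells use LFA-1, the pair of Itgal and Itgb2, to hold their targets. The surface levels of the α2 chain (CD49b, seen by the antibody DX5) and of the αM chain (CD11b) mark circulating and mature mouse NK cells, whereas liver-resident NK cells carry the α1 chain (CD49a).

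The libraries held 10292480 to 13787189 counts. Cd36 stood at 203 ± 82.1 CPM (counts scaled by library size and the TMM factors of edgeR; SD, n = 3) in CD36+ NK and at 21.0 ± 9.37 CPM in CD36- NK, so the sorted marker differed as the labels say. Klrb1c, which encodes the NK1.1 antigen of the gate, was at 83.1, 106 and 77.9 CPM in CD36+ NK and at 495, 448 and 524 CPM in CD36- NK. All 13 genes of a list of NK lineage markers were lower in CD36+ NK, and their summed level was 1265 to 1556 CPM there and 6642 to 8661 CPM in CD36- NK. All 10 tested genes of a list of 12 macrophage and Kupffer cell markers were higher without overlap, with sums of 2499 to 6104 CPM in CD36+ NK and 425 to 1531 CPM in CD36- NK. No gene of that list was at 0 in all libraries, but Clec4f, a defining marker of Kupffer cells, had 17, 624 and 0 counts in CD36+ NK and none in CD36- NK. Sums of B cell markers (4615 to 5142 against 3035 to 3479 CPM) and erythroid markers (329 to 755 against 71.2 to 154 CPM) were also higher in CD36+ NK. CD36+ NK replicate 1 stood apart in T cell genes, with 303 counts of Cd3e against 1 to 12 in the other libraries, although the gate left out CD3+ cells. A lower level of a gene in these bulk samples may mean fewer cells of a type or less RNA per cell, and the 2 cannot be told apart.

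Of the 10 integrin genes, 3 were called lower in CD36+ NK, namely Itga2, Itgax and Itgam. All 10 had enough counts to be tested, and a gene was called when its Benjamini-Hochberg adjusted p in edgeR's quasi-likelihood test was below 0.05 and its fold change above 2. Among all 14761 tested genes 5.96% were called, 2.98% as lower and 2.98% as higher, and 10.5% had an adjusted p below 0.05 at any fold. No member was called higher by this test, although 1 member, Itgad, was higher at an unadjusted p below 0.05, and DESeq2 and the exact test of edgeR each called it. The groups did not overlap in 9 of the 10 genes, 8 lower and 1 higher, as in 32.8% of all tested genes (15.7% lower and 17.0% higher). The log2 fold change of CD36+ NK over CD36- NK was below 0 in 9 of 10 members and in 48.1% of all tested genes. Its median was -0.64 over the members and 0.01 over all tested genes. Of the 7 members not called, 5 had an adjusted p under 0.1, the lowest being 0.0541 for Itgb7. Without CD36+ NK replicate 1, the library with T cell genes, 4 members were called lower, the fourth being Itga6, and 1, Itgad, was called higher. The number called lower was 2 when CD36+ NK replicate 2 or 3 was left out, 2 when replicate 1 of CD36- NK was, and 1, Itga2 alone, without CD36- NK replicate 3. It was also 2, Itga2 and Itgax, when the counts of Gm49368, a gene that overlaps Itgam, were added to those of Itgam.

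**Figure D1:**
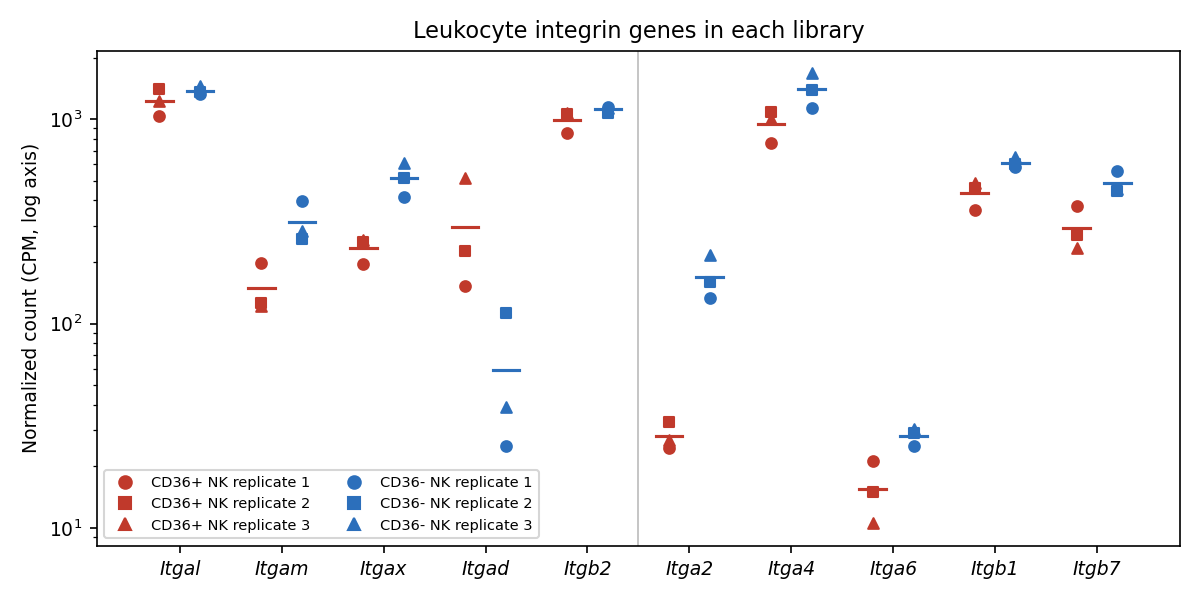
Normalized count (CPM, log axis) of each integrin gene in each library, with a bar at the mean of the 3 libraries of a group and the β2 family at the left of the vertical line. The CD36+ NK points (red) lie below the CD36- NK points (blue) for 8 genes, above them for Itgad (153 to 514 against 25.2 to 113 CPM), and among them for Itgal.

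**Figure D2:**
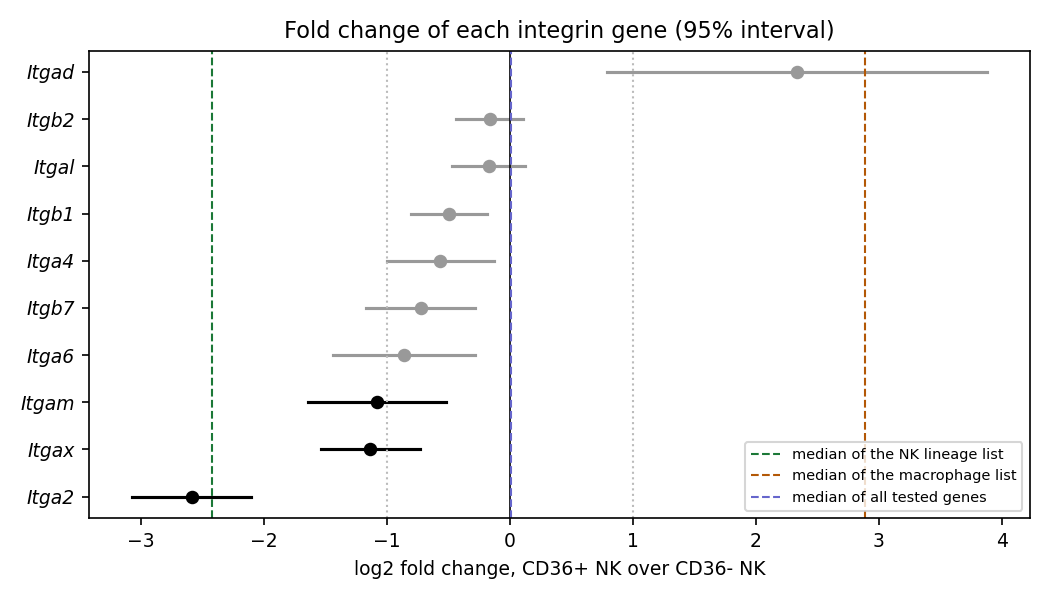
Log2 fold change (CD36+ NK over CD36- NK) of each gene with its 95% interval, black where the gene was called and grey where it was not, with dotted lines at a fold change of 2 and dashed lines at the medians of the NK lineage list (-2.42), the macrophage list (2.89) and all tested genes (0.01). The interval of Itga2, -3.07 to -2.10, holds the first of these medians and that of Itgad, 0.79 to 3.88, holds the second.

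Promoters of the 3 called genes are shown because these genes were lower together. RefSeq promoters (build GRCm38.p6, 250 bases before to 50 bases after the start site) were on hand for 6 of the 10 members: Itga2, Itgam, Itgax, Itga4, Itgb1 and Itgb7. Capitals mark matches, on either strand, to 4 short motifs: the ETS core GGAAGT, the T-box half-site GGTGTG, the RUNX site TGTGGT and the GC box GGGCGG. Factors of the ETS, T-box and RUNX families are known to act in NK cells.
Itga2, chr13:114932051-114932350, minus strand: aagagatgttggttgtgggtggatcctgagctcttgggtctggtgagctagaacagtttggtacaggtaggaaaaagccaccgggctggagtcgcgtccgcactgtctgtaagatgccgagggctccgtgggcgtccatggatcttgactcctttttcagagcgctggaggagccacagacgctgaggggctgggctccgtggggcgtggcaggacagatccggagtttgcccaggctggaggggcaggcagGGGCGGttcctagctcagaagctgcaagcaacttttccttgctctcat
Itgax, chr7:128129300-128129599, plus strand: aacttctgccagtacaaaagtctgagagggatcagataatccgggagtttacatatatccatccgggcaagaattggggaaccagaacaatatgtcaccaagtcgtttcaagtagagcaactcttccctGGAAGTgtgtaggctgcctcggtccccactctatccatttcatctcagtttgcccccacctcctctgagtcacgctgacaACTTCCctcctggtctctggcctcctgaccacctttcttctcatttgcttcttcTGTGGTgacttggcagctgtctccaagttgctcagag
Itgam, chr7:128062390-128062689, plus strand: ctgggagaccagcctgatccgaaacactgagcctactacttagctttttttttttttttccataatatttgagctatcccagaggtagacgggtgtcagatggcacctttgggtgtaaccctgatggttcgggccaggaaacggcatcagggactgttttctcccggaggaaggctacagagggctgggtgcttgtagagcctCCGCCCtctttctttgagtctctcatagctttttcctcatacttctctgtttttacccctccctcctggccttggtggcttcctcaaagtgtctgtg
Of 32851 promoters of this length, 23.8% held the ETS core, 19.0% the T-box half-site, 16.8% the RUNX site and 35.7% the GC box. The Itgax window held the ETS core 2 times, at 121 bases before the start site and, on the other strand, at 41 bases before it, and a RUNX match 13 bases after it. The windows of Itga2 and Itgam held a GC box each, 2 bases after and 47 bases before the start site, and no match to the other 3 motifs. None of the 4 motifs was thus in all 3 windows. Among the members that were not called, the Itga4 window held the T-box half-site 2 times, one of them overlapping a RUNX match, and a GC box, that of Itgb7 an ETS core and a T-box half-site, and that of Itgb1 a GC box. These are matches of letters only and say nothing of binding.

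In FPKM (fragments scaled by gene length and library total, which sets genes of unequal length on one scale), Itgb2 had the highest and Itga6 the lowest level in all 6 libraries. In CD36+ NK, Itgb2 was at 209.9 ± 21.2 FPKM (SD, n = 3) and Itgal at 133 ± 18.3 FPKM, and these 2 were separate from each other and from the rest. Itgb7 (79.2 ± 21.9 FPKM), Itgb1 (75.7 ± 9.67), Itga4 (59.6 ± 9.54), Itgad (55.8 ± 34.2) and Itgax (43.3 ± 5.04) followed, and each overlapped its neighbour in the order. Itgam (20.4 ± 6.39 FPKM), Itga2 (3.88 ± 0.577) and Itga6 (1.21 ± 0.450) came last and were separate from each other and from Itgax. In CD36- NK the order began with Itgb2 (242 ± 6.18 FPKM), Itgal (154 ± 5.18) and Itgb7 (134 ± 17.0), of which the last 2 overlapped. Itgb1 (109.7 ± 5.42 FPKM), Itgax (97.8 ± 17.9) and Itga4 (90.7 ± 16.6) came next and overlapped from neighbour to neighbour, and Itgam (44.2 ± 10.3) was separate from those above and below. Itga2 (23.96 ± 5.71 FPKM) overlapped with Itgad (11.6 ± 9.42), and Itga6 (2.24 ± 0.220) was separate from both. Itgad changed its place most: it ranked 9 of 10 in every CD36- NK library and 7, 7 and 3 in the CD36+ NK libraries.

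Itga2 (ENSMUSG00000015533) encodes the collagen-binding α2 chain and had the log2 fold change farthest from 0 of the 10 genes, except without CD36+ NK replicate 1 or without replicate 2 of CD36- NK, when that of Itgad was farther (2.64 and 3.20). The gene is on chromosome 13, minus strand, at 114969617 to 115068636 (all gene positions are those of the table, which names no build). Its counts were 277, 448 and 325 in CD36+ NK and 1734, 1802 and 2217 in CD36- NK, which is 24.7, 33.0 and 27.0 CPM against 133, 159 and 217 CPM. Every CD36- NK library stood well above every CD36+ NK library. The means were 28.2 ± 4.28 and 169.7 ± 42.6 CPM (SD, n = 3), 6.01-fold lower in CD36+ NK, with a log2 fold change of -2.59 (SE 0.206, edgeR adjusted p = 0.000987). The gene was called under each of the 16 alternative settings, with log2 fold changes from -2.75 to -2.38.

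Itga2 was also lower relative to its partner Itgb1 and to Itga1. The FPKM ratio of Itga2 to Itgb1 was 0.0515 ± 0.00659 in CD36+ NK and 0.217 ± 0.0413 in CD36- NK (SD, n = 3), without overlap. Itga1 encodes another collagen-receptor α chain, which marks liver-resident NK cells. The FPKM ratio of Itga2 to Itga1 was 7.45, 10.1 and 9.16 in CD36+ NK and 22.3, 24.8 and 40.4 in CD36- NK. Itga1 itself was at 9.30 ± 0.574 and 17.4 ± 1.56 CPM, with a log2 fold change of -0.90 (SE 0.137, edgeR adjusted p = 0.00996), which is under the fold needed for a call. A list of 8 ILC1 and liver-resident NK markers, Itga1 among them, had sums of 92.7 to 153 CPM in CD36+ NK and 162 to 180 CPM in CD36- NK, and its median log2 fold change was -0.74.

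Set against NK lineage markers, the levels of Itga2 overlapped between the groups. The 13 genes of that list, none of them an integrin, had log2 fold changes from -2.58 to -2.20, and each of them was called lower. Some of them (Eomes, Ncr1, Tbx21 and Il18r1) and Itga2 itself are genes that the study also names for CD36- NK cells, so the list may not be independent of the samples. The log2 CPM of Itga2 minus the mean of the list was -1.90, -1.52 and -1.49 in CD36+ NK and -1.77, -1.35 and -1.27 in CD36- NK. These values overlapped, and their group means differed by -0.17. All of the other 9 integrin genes were higher relative to the NK list in CD36+ NK without overlap. These differences ran from 1.27 log2 units for Itgax to 2.22 for Itgb2 and 4.83 for Itgad. The mean of the list itself differed by -2.39 log2 units, so any gene whose own level changed little comes out higher on this scale. The share of all tested genes that did so was not counted, so the 9 do not set the integrins apart from other genes. The part of the NK lineage list in the difference of Itga2 was not tested.

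**Figure D3:**
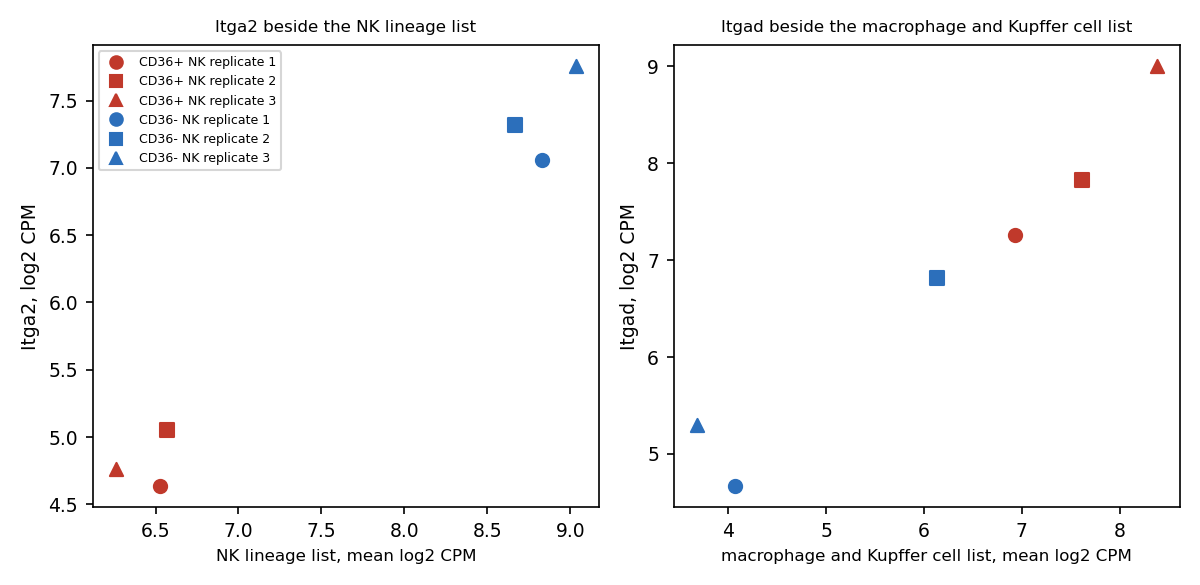
Left, log2 CPM of Itga2 against the mean log2 CPM of the NK lineage list. Right, log2 CPM of Itgad against that of the macrophage and Kupffer cell list. Each point is a library: CD36+ NK (red) lies low on both axes at the left and high on both at the right, and CD36- NK replicate 2 (blue square) lies closest to CD36+ NK in the right panel, at a list mean of 6.14.

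Likeness of pattern was measured as the root mean square difference of log2 CPM, centred on each gene's mean, over the 6 libraries. The genes nearest to Itga2 were Klra10 (0.0794 log2 units), Klri2 (0.0914) and Il18rap (0.0976). Klra10 and Klri2 encode lectin-like receptors of NK cells and Il18rap a chain of the interleukin-18 receptor. Klra10 belongs to a family of similar genes between which fragments could have been split, so its value is uncertain.

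Of the β2 family, Itgax (ENSMUSG00000030789) encodes the αX chain (CD11c), which marks dendritic cells and is also found on mouse NK cells. The gene is on chromosome 7, plus strand, at 127728719 to 127749829. It had 2210, 3401 and 3067 counts in CD36+ NK and 5398, 5798 and 6261 in CD36- NK, or 197, 250.2 and 255 CPM against 415, 513 and 611 CPM. The lowest CD36- NK library was well above the highest CD36+ NK library. The gene was 2.19-fold lower in CD36+ NK, at 234 ± 32.4 against 513 ± 98.3 CPM (SD, n = 3), with a log2 fold change of -1.13 (SE 0.171, edgeR adjusted p = 0.00969). Without CD36- NK replicate 3 the log2 fold change was -0.997 (edgeR adjusted p = 0.0264), just under the fold needed, and the call was lost.

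Markers of dendritic cells were mixed in direction. The 8 genes of that list had sums of 229 to 333 CPM in CD36+ NK and 153 to 213 CPM in CD36- NK, none of them at 0, and 3 were called higher and none lower by edgeR, with 1 lower at an unadjusted p below 0.05. Their part in the level of Itgax was not tested. Itgax and Itgad are neighbours on the chromosome and share 8.02% of the distinct 50-base stretches of the Itgax transcripts in the GENCODE M21 annotation, with a longest shared run of 188 bases, so a small share of fragments could have gone to either gene. The genes nearest to Itgax in pattern were Ptpn4, a phosphatase gene (0.0941 log2 units), Gm57078 (0.0990) and 2610029K11Rik (0.101), of which the last 2 were at about 2 CPM or less.

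Itgam (ENSMUSG00000030786) encodes the αM chain (CD11b), which with β2 forms complement receptor 3 of myeloid cells and of mature NK cells. It is encoded on chromosome 7, plus strand, at 127661812 to 127717663. Its counts were 2225, 1718 and 1473 in CD36+ NK and 5198, 2948 and 2912 in CD36- NK, or 198, 126 and 122 CPM against 399.6, 261 and 284 CPM. Replicate 1 was the highest library of each group, and the groups did not overlap. The gene was 2.11-fold lower in CD36+ NK, at 149 ± 42.5 against 315 ± 74.3 CPM (SD, n = 3), with a log2 fold change of -1.08 (SE 0.238, edgeR adjusted p = 0.0336). The call was lost without CD36+ NK replicate 2 (edgeR adjusted p = 0.116) or 3 (adjusted p = 0.116) and without CD36- NK replicate 1 (adjusted p = 0.103) or 3 (adjusted p = 0.0819). Neutrophil markers, with 10 of 10 tested, none at 0 and none called by edgeR (1 higher and none lower at an unadjusted p below 0.05), were also highest in replicate 1 of each group. Their sums were 5461, 916 and 1180 CPM in CD36+ NK and 4610, 2636 and 1921 CPM in CD36- NK, and their part in the level of Itgam was not tested. Monocyte markers went both ways: of 9 tested, none at 0, 3 were called higher and 1 lower, with sums of 5609 to 6074 CPM in CD36+ NK and 3815 to 6541 CPM in CD36- NK. The 3 called higher were Cd14 (log2 fold change 1.70, edgeR adjusted p = 0.00167), Clec4e (1.77, edgeR adjusted p = 0.0215) and Treml4 (2.84, edgeR adjusted p = 0.0145). In all, 7 of the 9 were above 0 and 2 below. The marker called lower was Ccr2, the chemokine receptor of classical monocytes, with a log2 fold change of -1.35 (SE 0.182, edgeR adjusted p = 0.00649). Ly6c2 of the same cells was at -1.14 (SE 0.322, edgeR adjusted p = 0.0669) and was not called. The part of monocytes in the levels of Itgam and Itgax was not tested.

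The level of Itgam depends on how fragments were shared with an overlapping gene. Gm49368 (ENSMUSG00000108596) lies on the same strand from 127661855 to 127727332, from just inside Itgam to just before Itgax, and 66.3% of the distinct 50-base stretches of the Itgam transcripts in GENCODE M21 also occur in it. It had 1316, 2692 and 1909 counts in CD36+ NK and 1873, 2709 and 2506 in CD36- NK, with a log2 fold change of -0.41 (SE 0.255, edgeR adjusted p = 0.373). Of the counts of the pair, Gm49368 took 37.2%, 61.0% and 56.4% in CD36+ NK and 26.5%, 47.9% and 46.3% in CD36- NK, the least in replicate 1 of each group. Added together, the pair was at 315, 324 and 281 CPM in CD36+ NK and at 544, 500.2 and 529 CPM in CD36- NK, with no library standing out. The sum was 307 ± 22.8 against 524 ± 22.1 CPM (SD, n = 3), with a log2 fold change of -0.77 (SE 0.0956, edgeR adjusted p = 0.00513), and it was not called because the fold stayed under 2. The spread between libraries was thus smaller in the sum than in Itgam alone, and so was the difference between groups.

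**Figure D4:**
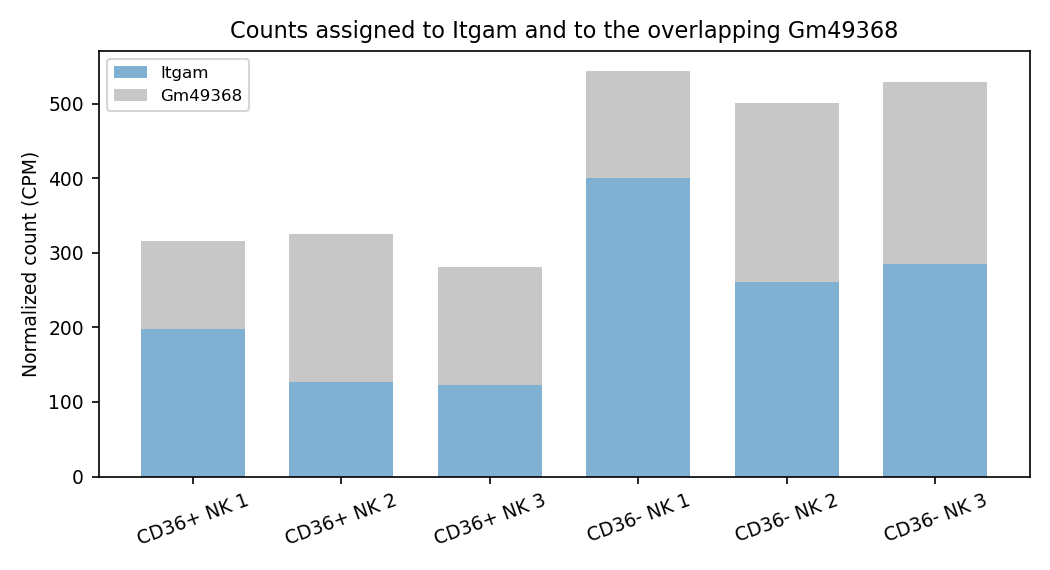
Normalized counts (CPM) assigned to Itgam (blue) and to the overlapping gene Gm49368 (grey), stacked for each library. The whole bars reach 281 to 324 CPM in CD36+ NK and 500.2 to 544 CPM in CD36- NK, while the blue part alone varies from 122 to 198 and from 261 to 399.6 CPM.

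Itgad (ENSMUSG00000070369), the gene of the αD chain found mainly on tissue macrophages, was the one member with a log2 fold change above 0. Its position is chromosome 7, plus strand, 127753548 to 127822988. The gene had 1722, 3091 and 6181 counts in CD36+ NK and 328, 1276 and 402 in CD36- NK, or 153, 227 and 514 CPM against 25.2, 113 and 39.3 CPM. CD36+ NK replicate 3 was the highest and CD36- NK replicate 2 stood above its group, but the groups did not overlap. Their means were 298 ± 190.4 and 59.1 ± 47.1 CPM (SD, n = 3), a ratio of 5.05 with a log2 fold change of 2.34 (SE 0.656, 95% interval 0.79 to 3.88, edgeR adjusted p = 0.0661), which missed the threshold. It was called by DESeq2 (adjusted p = 0.0270), by the exact test of edgeR (adjusted p = 0.00427), with a block for the form of the library name (edgeR adjusted p = 0.0333), and without CD36+ NK replicate 1 (edgeR adjusted p = 0.0495) or CD36- NK replicate 2 (edgeR adjusted p = 0.0196).

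The order of the libraries by Itgad was close to their order by macrophage markers. Sums of that list were 2499, 3852 and 6104 CPM in CD36+ NK and 633, 1531 and 425 CPM in CD36- NK, so that CD36+ NK replicate 3 was the highest and CD36- NK replicate 2 the highest of its group by both measures. The median log2 fold change of the 10 tested markers was 2.89, and 4 were called higher. In log2 CPM, Itgad lay 0.33, 0.21 and 0.63 above the mean of the list in CD36+ NK and 0.60, 0.68 and 1.63 above it in CD36- NK, with overlap. The part of these markers in the level of Itgad was not tested. Its nearest genes in pattern were Myo10, a myosin gene (0.0973 log2 units), Dchs1, a gene of the cadherin family (0.106), and Dst, a cytoskeletal linker gene (0.122). Among the distinct 50-base stretches of its transcripts, 13.5% occur in another gene, mostly Itgax.

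Itgal and Itgb2, the chains of LFA-1, differed little between the groups. Itgal (ENSMUSG00000030830, chromosome 7, plus strand, 126895432 to 126934310) had 11688, 19037 and 14794 counts in CD36+ NK and 17340, 15280 and 14829 in CD36- NK. In CPM these were 1040.3, 1401 and 1230.0 against 1333, 1351 and 1448, and the groups overlapped. The log2 fold change was -0.17 (SE 0.126, 95% interval -0.47 to 0.13, edgeR adjusted p = 0.453). Itgb2 (ENSMUSG00000000290, chromosome 10, plus strand, 77366086 to 77401542) had 9614, 14464 and 12837 counts in CD36+ NK and 14922, 12098 and 11588 in CD36- NK, or 856, 1064 and 1067 against 1147, 1069.7 and 1132 CPM. Its groups were separate only narrowly, and its log2 fold change was -0.16 (SE 0.114, 95% interval -0.43 to 0.10, edgeR adjusted p = 0.423). Neither interval reaches a fold change of 2 in either direction.

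The ratio of the 2 LFA-1 genes varied little between libraries. The FPKM ratio of Itgal to Itgb2 was 0.633 ± 0.0426 in CD36+ NK and 0.637 ± 0.0328 in CD36- NK (SD, n = 3), with overlap. Over the 6 libraries their centred log2 CPM differed by 0.0708 units (root mean square), and 56 of the tested genes were nearer to Itgal than Itgb2 was. Nearest of all to Itgal were Orc3 (0.0302 log2 units), Atad2b (0.0322) and Ppp4r2 (0.0322), and nearest to Itgb2 were Zscan29 (0.0396), Eed (0.0396) and Rnaset2b (0.0412). Of these, Orc3 encodes a subunit of the origin recognition complex and Eed one of a Polycomb complex.

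Shares of the 4 α chain genes that pair with β2 show the makeup of the family within a library, which does not depend on the scaling of libraries. Itgal held 55.0%, 58.8% and 45.4% of their summed FPKM in CD36+ NK and 51.6%, 49.2% and 49.7% in CD36- NK, with overlap. The share of Itgax was lower in CD36+ NK without overlap, at 17.2% ± 1.04 against 31.6% ± 4.20 (SD, n = 3). Itgad took 14.1%, 16.6% and 33.0% in CD36+ NK and 1.70%, 7.14% and 2.34% in CD36- NK, also without overlap. The share of Itgam, 8.49% ± 4.06 against 14.5% ± 4.23 (SD, n = 3), overlapped between the groups, and it leaves out Gm49368, which took 26.5% to 61.0% of the counts of the Itgam and Gm49368 pair, a different part in each library. The FPKM ratio of Itgad to Itgax was 0.795, 0.928 and 2.06 in CD36+ NK and 0.0620, 0.225 and 0.0655 in CD36- NK. The 4 genes together reached 253 ± 38.1 FPKM in CD36+ NK and 308 ± 16.6 FPKM in CD36- NK (SD, n = 3). These sums were separate only narrowly, with 287 FPKM in CD36+ NK replicate 3 and 289 FPKM in CD36- NK replicate 1. Unlike the shares, they depend on the scaling of libraries. The sum over Itgb2, 1.20 ± 0.0948 against 1.27 ± 0.0949, overlapped.

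**Figure D5:**
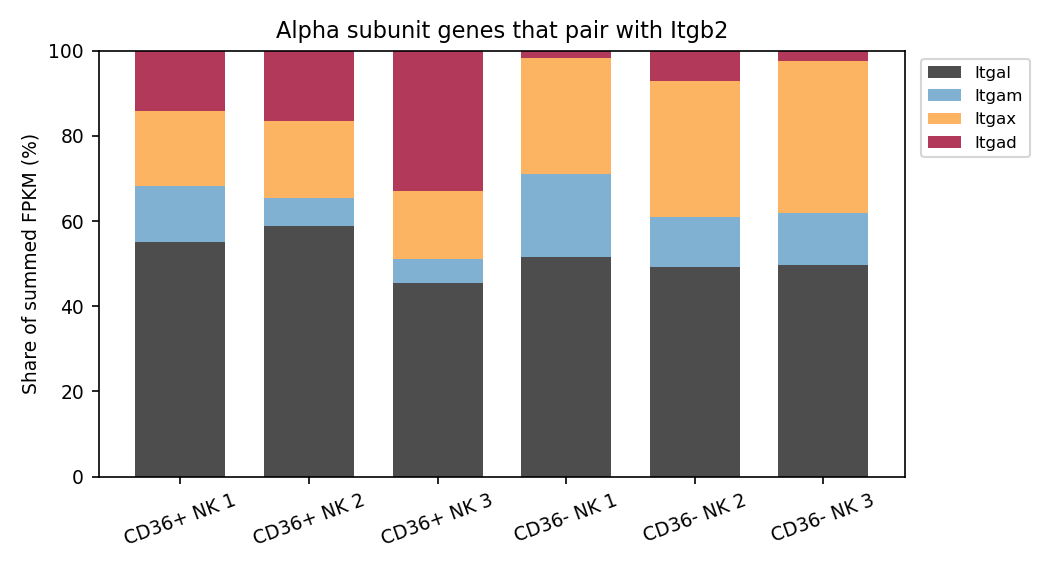
Share (%) of the summed FPKM of the 4 α chain genes that pair with Itgb2, stacked for each library, without Gm49368. Itgad (dark red) takes 14.1% to 33.0% of the CD36+ NK bars and 1.70% to 7.14% of the CD36- NK bars, and Itgax (orange) 16.0% to 17.9% and 27.3% to 35.7%.

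The genes of the β1 and β7 receptors other than Itga2 had log2 fold changes between -0.86 and -0.49 and none was called. Itgb1 (ENSMUSG00000025809, chromosome 8, plus strand, 129412135 to 129459681), the shared chain of the matrix receptors, had 4054, 6271 and 5836 counts in CD36+ NK and 7574, 6842 and 6685 in CD36- NK, or 361, 461 and 485 against 582, 605 and 653 CPM. The groups did not overlap, and the log2 fold change was -0.49 (SE 0.131, 95% interval -0.80 to -0.19, edgeR adjusted p = 0.0570). Itga4 (ENSMUSG00000027009, chromosome 2, plus strand, 79085770 to 79163467), the α4 chain of the receptor for VCAM-1, had 8559, 14685 and 12023 counts in CD36+ NK and 14821, 15664 and 17169 in CD36- NK, or 762, 1080.5 and 999.6 against 1139, 1385 and 1677 CPM. CD36+ NK replicate 2 came close to CD36- NK replicate 1 but the groups did not overlap, and the log2 fold change was -0.56 (SE 0.184, 95% interval -0.996 to -0.13, edgeR adjusted p = 0.0996). The FPKM ratio of Itga4 to Itgb1 was 0.787 ± 0.0544 in CD36+ NK and 0.823 ± 0.111 in CD36- NK (SD, n = 3), with overlap.

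Itgb7 (ENSMUSG00000001281, chromosome 15, minus strand, 102124430 to 102140379), the chain of the gut-homing receptor, had 4223, 3686 and 2828 counts in CD36+ NK and 7254, 5007 and 4679 in CD36- NK, or 376, 271 and 235 against 558, 443 and 457 CPM. Replicate 1 was the highest of each group, as for Itgam counted without Gm49368, and the groups did not overlap. The log2 fold change was -0.72 (SE 0.189, 95% interval -1.17 to -0.28, edgeR adjusted p = 0.0541). Itga6 (ENSMUSG00000027111, chromosome 2, plus strand, 71575960 to 71688760), the α6 chain of laminin receptors, had 239, 203 and 127 counts in CD36+ NK and 326, 331 and 311 in CD36- NK, or 21.3, 14.9 and 10.6 against 25.1, 29.3 and 30.4 CPM. Its groups did not overlap either, although CD36+ NK replicate 1 lay close to CD36- NK replicate 1. The log2 fold change was -0.86 (SE 0.246, 95% interval -1.44 to -0.28, edgeR adjusted p = 0.0703), and without CD36+ NK replicate 1 it was -1.16 (edgeR adjusted p = 0.0170) and the gene was called.

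In pattern, Itga4 and Itgb1 differed by 0.130 log2 units (root mean square) with 43 genes nearer to Itga4, and Itgam and Itgb7 differed by 0.200 with 15 genes nearer to Itgam. Itgam and Itgb7 were highest in replicate 1 of each group. Itgam was counted here without Gm49368, and with it CD36+ NK replicate 2 was the highest of its group (324 CPM). The likeness of Itgam to Itgb7 and to its nearest genes is therefore uncertain. Nearest to Itgb7 were Tagln2 (0.0569 log2 units), Vim (0.0763) and Emb (0.0770), of which Tagln2 and Vim encode cytoskeletal proteins. Nearest to Itgb1 were Lat2 (0.0412), an adaptor gene of leukocytes, Rab19 (0.0508) and 0610010F05Rik (0.0512), and nearest to Itga4 were Tmem163 (0.0587), Smc5 (0.0709) and Asap2 (0.0742). Acpp (0.0598), Parp16 (0.0598) and Gimap3 (0.0823) were nearest to Itga6, and Ly6a2 (0.118), S100a13 (0.129) and Cdh24 (0.139) to Itgam.

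Of 16 further integrin subunit genes, 11 were tested, 2 were called higher in CD36+ NK and none lower by edgeR (3 lower at an unadjusted p below 0.05, and 1 called lower by DESeq2 and by the exact test of edgeR), and the median log2 fold change was 0.38. Itgb5, a β chain that pairs with αV, was at 165.7 ± 59.8 CPM in CD36+ NK and 39.7 ± 23.1 CPM in CD36- NK (SD, n = 3), with a log2 fold change of 2.06 (SE 0.438, edgeR adjusted p = 0.0301). Itgae, the αE partner of Itgb7 that binds E-cadherin, was at 6.46 ± 1.70 and 2.27 ± 0.817 CPM, with a log2 fold change of 1.51 (SE 0.341, edgeR adjusted p = 0.0362). The FPKM ratio of Itgae to Itgb7 was 0.0175 ± 0.00458 in CD36+ NK and 0.00379 ± 0.00171 in CD36- NK (SD, n = 3), so αE transcripts were scarce beside β7 in both groups. Itga9 had the highest log2 fold change of the list, 2.96 (SE 0.798, edgeR adjusted p = 0.0599). Itga3 had the lowest, -1.27 (SE 0.334, edgeR adjusted p = 0.0560), and neither gene was called. With a replicate block no further subunit was called higher, nor without CD36+ NK replicate 2 or 3 or without CD36- NK replicate 1 or 3, and without CD36+ NK replicate 1 the number was 1. Macrophage markers moved with Itgb5 and Itgae in direction. So did the dendritic cell markers Xcr1 and Clec9a (log2 fold changes 2.46 and 2.03, edgeR adjusted p = 0.00763 and 0.0204) and the T cell marker Cd8a (3.17, edgeR adjusted p = 0.0396). In the dendritic cell list 6 genes were above 0 and 2 below, Clec10a at -0.59 and Cd209a at -0.17. In the T cell list 7 were above 0 and 1 below, Cd28 at -1.52, and the sums overlapped (38.6 to 348 against 68.9 to 150 CPM). Cd8a had 710, 122 and 199 counts in CD36+ NK and 38, 48 and 27 in CD36- NK. The part of any of these markers was not tested.

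Among 30 ligand genes of integrins 16 were tested (median log2 fold change 0.32), and 2 were called higher and none lower by edgeR (none lower at an unadjusted p below 0.05, and none by DESeq2 or the exact test of edgeR). The 2 called genes encode chains of collagen IV, a basement membrane ligand of the α1 and α2 receptors: Col4a2 at 5.12 ± 1.60 against 0.677 ± 0.223 CPM, with a log2 fold change of 2.88 (SE 0.378, edgeR adjusted p = 0.00624), and Col4a1 at 4.32 ± 1.23 against 1.66 ± 0.417 CPM, with 1.38 (SE 0.322, edgeR adjusted p = 0.0392). The number of ligands called higher was 1 with no filter on low counts, with at least 10 counts in every library, without CD36+ NK replicate 2 or 3, and without CD36- NK replicate 1 or 3. Liver sinusoidal endothelial markers (3 of 6 tested, none called by edgeR, 2 higher and none lower at an unadjusted p below 0.05) had sums of 35.4 to 93.2 CPM in CD36+ NK and 3.91 to 19.4 CPM in CD36- NK, and macrophage markers were higher too. The part of either in the collagen genes was not tested. Vcam1, the ligand of the α4 and β1 pair, had 6133, 10727 and 20398 counts in CD36+ NK and 531, 3617 and 382 in CD36- NK. The libraries stood in nearly the order they had for Itgad, and the log2 fold change was 2.93 (SE 0.922, edgeR adjusted p = 0.0911), which missed the threshold. The ligand of LFA-1 encoded by Icam1 was at 151 ± 30.6 against 179 ± 18.8 CPM, with a log2 fold change of -0.24 (SE 0.163, edgeR adjusted p = 0.404). Fibronectin (Fn1), bound by α4 and β1, was at 541 ± 157 against 542 ± 201 CPM, and Madcam1, the ligand of the α4 and β7 pair, had at most 1 count in any library.

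Of 40 genes of integrin activation and adhesion signalling, 36 were tested, 4 were called higher and 1 lower, and the median log2 fold change was 0.06. Skap1, an adaptor that couples antigen receptors to integrin activation, was lower in CD36+ NK, at 25.5 ± 13.4 against 95.1 ± 23.4 CPM (SD, n = 3), with a log2 fold change of -1.90 (SE 0.361, edgeR adjusted p = 0.0212). Among the higher genes were the kinase genes Src and Ptk2 and the α-actinin gene Actn1, with log2 fold changes of 2.18, 1.23 and 2.27 (SE 0.288, 0.262 and 0.408, edgeR adjusted p = 0.00631, 0.0300 and 0.0176). With a replicate block 1 gene was called higher and none lower. The call of Skap1 was also lost without CD36+ NK replicate 2 or 3 and without CD36- NK replicate 1 or 3, and the number called higher was 2, 2, 1 and 2 in these fits. Of genes for proteins that switch integrins on, talin (Tln1) had a log2 fold change of -0.06 (SE 0.0869, edgeR adjusted p = 0.743), kindlin-3 (Fermt3) of 0.17 (SE 0.0916, edgeR adjusted p = 0.298) and Rap1b of 0.11 (SE 0.115, edgeR adjusted p = 0.617). These 3 genes were named after their values were seen and do not stand for the list, in which the adaptor gene Skap2 had 0.64 (SE 0.132, edgeR adjusted p = 0.0267, under the fold needed).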

How the data were processed

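RNA was sequenced from 3 libraries of CD36+ NK and 3 of CD36- NK. The authors filtered reads with Seqtk, mapped them with HISAT2 2.0.4 and counted fragments with StringTie. They deposited raw counts per gene and, beside them, FPKM values, which the authors made from count, gene length and library total (to within 1% in 100% of 7439 genes with over 200 counts in every library). Counts were tested and FPKM used only to compare levels between genes or within a library. The table names no build, and the submitters' processing notes list a rat build although the gene identifiers are of mouse. Lines of 2 genes were broken and were rejoined.

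Counts were filtered with edgeR 4.0.16 (filterByExpr, minimum count 10, 14761 genes), scaled by TMM and tested with its quasi-likelihood test in R 4.3.3 without a block, with thresholds of adjusted p below 0.05 and fold change above 2 as in the study. Intervals are 95% t intervals of the fitted log2 fold change, and log2 CPM used a prior count of 2. The biological coefficient of variation was 20.3%, and replicates differed beyond sampling noise (chi-square per degree of freedom 9.59 to 18.5). The p-values measure the spread between these libraries only. Sample titles were followed: the library names write the sign of CD36 otherwise, and Cd36 was higher in each library titled CD36+. The libraries of replicate 1 in both groups have names of another form, and this form was used as a block in an alternative fit. The script was tested on simulated data.

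The rule for the 10 genes uses symbols only, but these genes and all gene lists were proposed with earlier results of these data known, so the choice was not blind. Text names every member, the called genes of lowest p of each pathway list, except 1 that is not reported here, and the 3 genes nearest to each member. Clec4f, Cd3e, Ccr2, Ly6c2, Cd14, Clec4e, Treml4, Xcr1, Clec9a, Clec10a, Cd209a, Cd8a and Cd28 were named after their values were seen. So were Itga3, Itga9, Skap2 and the nearest pairs of members. Alternatives were a replicate block, DESeq2 1.42.0, the exact test of edgeR, other size factors and filters, no fold threshold, each library left out in turn, count shares in place of FPKM shares, and Itgam and Gm49368 added together, which was chosen after seeing the data.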

Additional observations from a re-analysis of the deposited data

How the results depend on the processing

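No member changed direction under any of the 16 alternatives to its fit, and other size factors left the calls of all 10 as they were with the median of all genes at 0.00476 to 0.0149 log2 units. Itga2 was called in 16 of 16, Itgax in 15 and Itgam in 11. Leaving out each library in turn gave log2 fold changes of -1.35 to -0.88 for Itgam, -1.28 to -0.997 for Itgax, 1.69 to 3.20 for Itgad and -1.16 to -0.64 for Itga6. Itgam and Gm49368 added together, chosen after seeing the data, gave -0.77, under the fold needed. Itgad was called at 2.39 with a block for the form of the library name, at 2.33 with DESeq2 and at 2.33 with the exact test of edgeR, and so each of these called 1 member higher. The cause of these changes was not tested.

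Counts of calls moved more. Leaving out a library gave 1 to 4 members called lower (1 without CD36- NK replicate 3, 4 without CD36+ NK replicate 1) and 0 to 1 higher (Itgad, when CD36+ NK replicate 1 or replicate 2 of CD36- NK was left out), 0 to 3 other subunits higher (3 without CD36- NK replicate 2) and 0 to 1 lower, 1 to 4 ligands higher, and 1 to 5 signalling genes higher and 0 to 1 lower. With no fold threshold 2 other subunits were lower, 4 ligands higher, and 7 signalling genes higher and 2 lower. DESeq2 and the exact test of edgeR each called 1 other subunit lower, and they called 4 and 5 ligands higher. With no filter on low counts, or with at least 10 counts in every library, 1 ligand was called higher. Over all genes the alternatives that kept the fold threshold called 417 to 1247, against 880, and 1552 passed with no fold threshold. As shares of counts, Itgal took 64.4% and 60.8% and Itgax 12.3% and 22.6% in CD36+ NK and CD36- NK.

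The replicate numbers come from the titles, and nothing says that same-numbered samples share an animal. For CD36- NK the library names carry other numbers than the titles, so a block or correlation by title number is only one of the possible pairings. Deviations of same-numbered libraries from their group means had correlations of 0.310, 0.0515 and -0.0837 across genes, and replicate 1 alone matched its own number best. The replicate 1 libraries of both groups also share a form of name. They are the highest of their group in Itgb7, in neutrophil markers and in Itgam counted without Gm49368. With Gm49368 added to Itgam, CD36+ NK replicate 2 (324 CPM) was above CD36+ NK replicate 1 (315 CPM). The numbers as a whole are not taken to pair the samples, since the correlations of the other pairs were near 0. With the replicate block 3 members were called lower, the same genes (Itga2, Itgam and Itgax), and none higher. Itga2 was at -2.57 (adjusted p = 0.00962), Itgad at 2.44 (adjusted p = 0.0711) and Itgb7 at -0.74 (adjusted p = 0.0322, fold under 2). The block left 0 other subunits called higher, and 1 signalling gene higher and 0 lower, and 560 genes in all. Every member had at least 127 counts in every library, so no filter on low counts removed one, and the spread between 3 libraries a group limits what could be called.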
